A study of Mus musculus with 6 samples.

Results

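Nuclear pore and nuclear lamina genes were followed in mRNA libraries of mouse cells labelled female germline stem cells (FGSC) and of the same cells after induced differentiation (Dif-FGSC). The set held every gene whose symbol begins with Nup and a digit, and 17 named genes of the lamina, the nuclear envelope and the pore, which came to 38 of 24672 genes in the deposited table. Of these 38 genes, 35 had a mean of at least 1 FPKM (sequenced fragments scaled by transcript length and by library size) over the 6 libraries and were tested. Syne1, Nup210l and Nup62cl stayed below that level.

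Each group had 3 libraries from C57BL/6 cells beyond passage 20, and whether these were separate cultures is not stated, so the spread behind each p-value may be technical. FGSC were kept on inactivated STO fibroblasts in medium with 10% serum, 10 ng/mL LIF, 20 ng/mL EGF, 10 ng/mL bFGF and 10 ng/mL GDNF. Dif-FGSC were placed on inactivated granulosa cells with 10% serum, 10 ng/mL bFGF, 10 ng/mL BMP4 and retinoic acid at 0.1 µmol/L. Feeder, growth factors and retinoic acid changed together and cannot be told apart. By its title, the study concerns meiotic entry under retinoic acid and the folding of chromatin. The columns of the table carry the prefixes con and dif, and con was read as the undifferentiated group.

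The nuclear pore complex is a ring-shaped channel through the nuclear envelope, built from many copies of proteins called nucleoporins. Outer rings of the Y complex and an inner ring form its scaffold, membrane proteins anchor it, filaments reach into the cytoplasm and a basket reaches into the nucleus. Beneath the inner membrane lies the lamina, a mesh of A-type and B-type lamins that holds heterochromatin at the nuclear edge, partly through the lamin B receptor and LEM-domain proteins. The LINC complex of SUN and nesprin proteins ties the lamina to the cytoskeleton and, in meiosis, moves chromosome ends along the envelope.

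Low FPKM values gave a rough estimate of 17.3 to 26.9 M fragments per library. Markers of the labelled cell type were scarce: 7 of 10 germ cell genes stayed below 0.1 FPKM in every library, and their summed level was 0.0317 to 0.228 FPKM in FGSC-labelled libraries and 0.475 to 0.94 in Dif-FGSC-labelled ones. Most of the higher sum was Zbtb16, a transcription factor of stem cells of the germline and of blood lineages, listed at 0 in every FGSC-labelled library and at 0.433, 0.478 and 0.749 FPKM in the others. Dazl, Gfra1, Nanos3 and Tfap2c were listed at 0 throughout. Of 10 meiotic genes, Sycp2, Sycp3, Dmc1, Spo11 and Hormad1 were listed at 0 throughout, and the list summed to 1.17 to 1.43 FPKM in the FGSC group and 0.631 to 0.75 in the Dif-FGSC group. Sycp1 had a mean of 0.767 and 0.311 FPKM, Meiob 0.359 and 0.149, Rec8 0.168 and 0.146, and Stra8, an early target of retinoic acid in germ cells, 0.0083 and 0.0861. All were too low to be tested. Of 10 fibroblast and 10 granulosa markers, 9 and 8 stayed below 0.1 FPKM. The 12 blood and mast cell genes summed to 885 to 964 FPKM in FGSC-labelled libraries and 1111 to 1116 in Dif-FGSC-labelled ones. Of the 11 tested, 8 were higher and 1 lower. These levels go against the cell type in the labels, so every statement below is about libraries under those names. In bulk RNA, fewer cells of a type and less RNA per cell cannot be told apart, and the part of blood cell transcripts in the results was not tested.

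The promoters of a few members are shown first, picked after their values were seen. The inner ring paralogs Nup205, the member that rose most, and Nup188 hold the same short element just after the annotated start. The windows of Tpr and Nup107, pore genes that fell, do not. This contrast does not hold over the set. Nup214 and Nup210 rose more than Nup188 without the element in their windows, and Nup88 fell with it. Windows run from 250 bases before to 50 after the annotated start, are written 5′ to 3′ along the gene, and come from RefSeq on build GRCm38.p6, not the mm9 build named by the submitters. Capitals mark matches on either strand to the CCAAT box, to CCGGAAG as the core of an ETS factor site, and to ATGGCGG as the core of a YY1 site. No matches overlap in these windows. ATGGCGG begins with ATG, the start codon, and in Nup205 and Nup188 it lies after the annotated start. There it may be coding sequence, which was not tested.
Nup205 (chr6:35177366-35177665, plus strand): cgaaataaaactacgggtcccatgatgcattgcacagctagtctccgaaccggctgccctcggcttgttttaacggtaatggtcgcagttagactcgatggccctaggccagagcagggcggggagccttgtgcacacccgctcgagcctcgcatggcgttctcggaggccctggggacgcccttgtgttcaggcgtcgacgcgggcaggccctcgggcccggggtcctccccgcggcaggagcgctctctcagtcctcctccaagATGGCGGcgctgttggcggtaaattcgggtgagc
Nup188 (chr2:30286166-30286465, plus strand): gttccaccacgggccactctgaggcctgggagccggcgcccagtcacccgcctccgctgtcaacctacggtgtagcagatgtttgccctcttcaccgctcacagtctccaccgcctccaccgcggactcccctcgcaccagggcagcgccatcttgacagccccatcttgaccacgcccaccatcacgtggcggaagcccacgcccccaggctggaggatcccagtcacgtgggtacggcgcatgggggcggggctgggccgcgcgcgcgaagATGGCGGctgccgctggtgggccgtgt
Tpr (chr1:150392588-150392887, plus strand): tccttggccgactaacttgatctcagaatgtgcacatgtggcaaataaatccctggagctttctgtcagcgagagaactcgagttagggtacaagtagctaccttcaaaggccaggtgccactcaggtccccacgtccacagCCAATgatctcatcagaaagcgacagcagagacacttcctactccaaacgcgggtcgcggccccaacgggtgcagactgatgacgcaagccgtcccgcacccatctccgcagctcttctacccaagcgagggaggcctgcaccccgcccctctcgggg
Nup107 (chr10:117792656-117792955, minus strand): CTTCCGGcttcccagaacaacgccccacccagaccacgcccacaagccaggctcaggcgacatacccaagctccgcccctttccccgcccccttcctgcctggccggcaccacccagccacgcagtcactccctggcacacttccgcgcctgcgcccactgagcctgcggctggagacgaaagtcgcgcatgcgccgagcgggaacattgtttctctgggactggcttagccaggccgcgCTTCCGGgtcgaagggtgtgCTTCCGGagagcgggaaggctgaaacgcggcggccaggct

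Windows were found for 32 of the 38 members, 42 windows in all. No entry was matched for Lmnb1, Nup85, Seh1l, Nup210l, Nup35 and Nup43. ATGGCGG was present in 6 of the 42 windows (14.3%) and in 4.05% of 32851 windows of all genes. It was found in Nup205, Nup188, Nup50 and Ndc1, which were called higher, in Nup88, which was called lower, and in Tmpo, which was not called. CCGGAAG was present in 10 windows (23.8%) against 8.86%, in 9 members of which 2 were higher, 5 lower and 2 not called. CCAAT was present in 20 windows (47.6%) against 37.4%, in 17 members of which 5 were higher, 4 lower and 8 not called or not tested. Over all genes tested, 36.5% were called higher and 28.6% lower, and a link between a motif and a call was not tested. The motifs were chosen after the windows were seen, and a match is a stretch of letters, not a measured site.

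Pore and lamina genes moved in both directions, at close to the rate of all genes. Differences were tested with limma on log2(FPKM + 1) over 9162 genes, with calls made below a Benjamini-Hochberg adjusted p of 0.05. Of 35 tested members 14 were higher in libraries labelled Dif-FGSC, 10 were lower and 11 were not called. Of all genes tested 65.1% were called, 36.5% higher and 28.6% lower. The median log2 difference was 0.03 over the members and 0.03 over all genes. In 25 of 35 members the groups did not overlap, against 70.7% of all genes. Rises of at least 1.5 times in FPKM + 1 were called for 3 members, Nup205, Nup214 and Nup210, against 6.88% of all genes, while every called fall was smaller than 1.5 times, a size reached by 2.93% of all genes. A share this near the background says nothing particular about the set, and the members are described by role below. Role groups hold 2 to 9 tested genes and were chosen with earlier results known. Their counts describe the genes named and are no test of a subcomplex.

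**Figure D1:**
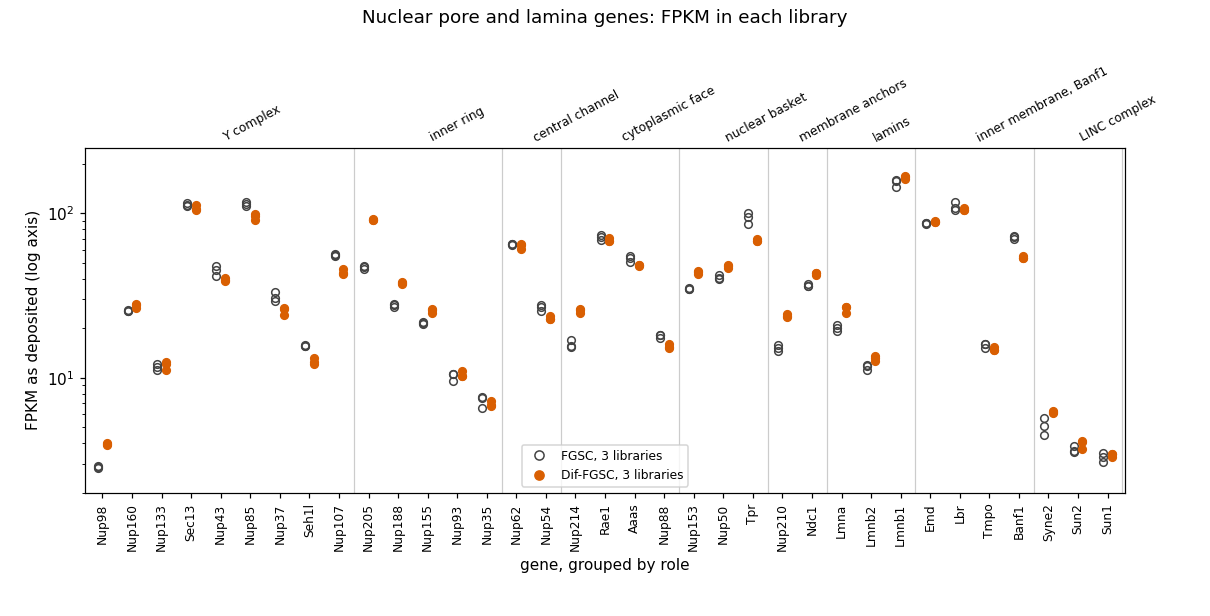
FPKM of the 35 tested members in each of 6 libraries, on a log axis, grouped by role (open circles FGSC, filled circles Dif-FGSC, 1 point per library). Nup205 stands at 46.1 to 47.6 FPKM in FGSC-labelled libraries and at 90.7 to 92.0 in the others, while for Nup62, Rae1, Emd and Sun1 the groups lie close together.

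The inner ring held the largest rise of the set, with 3 of 5 members higher, 0 lower and 2 not called. Among all genes tested 36.5% were higher and 28.6% lower. Nup205, a large scaffold nucleoporin, was listed at 46.1, 47.6 and 47.4 FPKM in FGSC-labelled libraries and at 92.0, 91.0 and 90.7 in Dif-FGSC-labelled ones. All 3 differentiated libraries were nearly level with each other and far above the others, a ratio of 1.94 (log2 difference 0.94 ± 0.0265 SE, limma adjusted p = 2.62e-07). Nup188, its paralog, stood at 27.1, 28.1 and 27.8 FPKM against 38.2, 37.8 and 37.1. The groups were again apart, at 1.36 times (log2 difference 0.43, limma adjusted p = 1.39e-05). Nup155, which bridges the inner ring and the membrane, stood at 21.8, 21.3 and 21.7 FPKM against 24.8, 25.7 and 26.1. It rose by 1.18 times with no overlap (limma adjusted p = 0.00049). Nup93, the linker that recruits Nup205 and Nup188, stood at 9.5 to 10.6 FPKM in FGSC-labelled libraries and 10.3 to 11 in the others, and Nup35, its membrane-binding partner, at 6.59 to 7.60 and 6.72 to 7.27. Both overlapped between groups and were not called (limma adjusted p = 0.476 and 0.454).

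Both tested membrane anchors were higher, beside 36.5% of all genes tested. Nup210, a membrane glycoprotein that encircles the pore, was listed at 15.2, 14.7 and 15.8 FPKM in FGSC-labelled libraries and at 24.4, 23.3 and 23.7 in Dif-FGSC-labelled ones. The groups were well separated at 1.56 times (log2 difference 0.61 ± 0.0388 SE, limma adjusted p = 9.89e-06). Ndc1, a membrane nucleoporin needed for pore assembly, stood at 37.0, 36.0 and 36.4 FPKM against 42.2, 43.3 and 43.6. It rose by 1.18 times without overlap (limma adjusted p = 0.000241). Nup210l, a paralog of Nup210 known from testis, was too low to be tested and was listed at 0.161, 0.145 and 0.253 FPKM against 0.101, 0.179 and 0.151, values that overlap.

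Of 9 members of the Y complex, the outer ring scaffold, 5 were lower, 2 higher and 2 not called. Among all genes tested 28.6% were lower and 36.5% higher. Nup107, a core subunit, was listed at 55.7, 56.3 and 55.3 FPKM in FGSC-labelled libraries and at 45.5, 42.8 and 43.5 in Dif-FGSC-labelled ones. Every differentiated library lay below every other, at 0.788 times (log2 difference -0.34 ± 0.0318 SE, limma adjusted p = 6.65e-05). Seh1l, a small propeller protein shared with the GATOR complex of amino acid sensing, stood at 15.8, 15.6 and 15.5 FPKM against 12.4, 12.1 and 13.3. It fell to 0.804 times with no overlap (limma adjusted p = 0.000479). Nup85, Nup37 and Nup43 were lower at 0.84, 0.825 and 0.877 times, and in each the groups did not overlap. Nup98 went against them. Its gene encodes both Nup98, a mobile nucleoporin, and Nup96, the Y complex subunit cut from the same precursor. It was listed at 2.82, 2.90 and 2.88 FPKM against 3.98, 3.91 and 3.99, a rise of 1.38 times (limma adjusted p = 0.000158). Nup160 was called higher at 1.07 times (limma adjusted p = 0.0414), a call that was lost under 9 of 14 alternatives. Sec13, also a coat protein of secretory vesicles, and Nup133 overlapped between the groups and were not called, at 0.954 and 1.02 times.

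**Figure D2:**
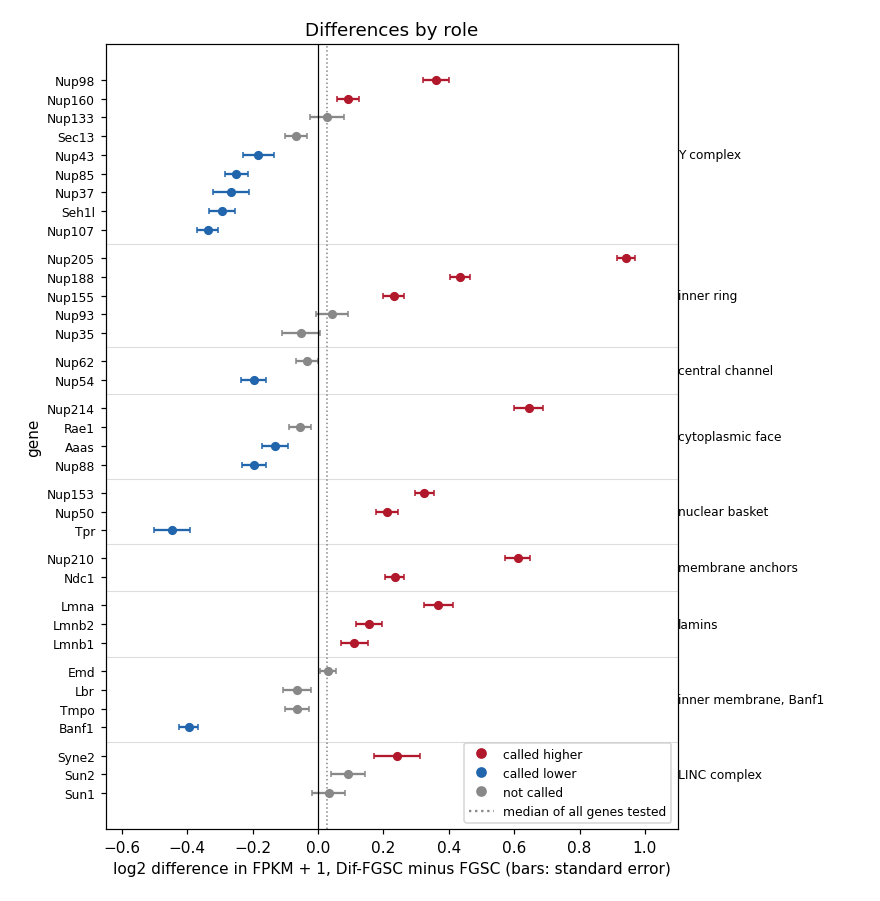
Log2 difference in FPKM + 1, Dif-FGSC minus FGSC, for each tested member with its standard error, grouped by role, with called rises in red, called falls in blue and members not called in grey. Points of the Y complex run from -0.34 (Nup107) to 0.36 (Nup98), those of the inner ring from -0.05 (Nup35) to 0.94 (Nup205), and the dotted line marks the median of all genes tested, 0.03.

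On the cytoplasmic face, where exported mRNA is released, Nup214 and its partner Nup88 moved apart. Nup214 was listed at 15.4, 15.6 and 17.0 FPKM in FGSC-labelled libraries and at 26.2, 25.8 and 24.8 in Dif-FGSC-labelled ones. It rose by 1.6 times, with the lowest differentiated library above the highest of the others (log2 difference 0.64 ± 0.0444 SE, limma adjusted p = 1.45e-05). Nup88, which binds Nup214 in the same subcomplex, stood at 18.1, 17.3 and 18.3 FPKM against 16.0, 15.5 and 15.1. It fell to 0.866 times without overlap (limma adjusted p = 0.00228). Nup88 overlaps Rabep1, at a mean of 4.07 FPKM, on the opposite strand. Aaas, the protein ALADIN that is lost in triple A syndrome, stood at 53.7, 50.4 and 55.4 FPKM against 47.9, 48.4 and 48.8. It was lower at 0.91 times (limma adjusted p = 0.0181), and the call was lost without FGSC replicate 1 (0.05), Dif-FGSC replicate 1 (0.0594) or Dif-FGSC replicate 2 (0.051). Rae1, an mRNA export factor, overlapped between groups at 0.962 times and was not called.

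The nuclear basket was split as well. Tpr, the long coiled-coil protein that builds its filaments, showed the largest fall of the set, from 95.4, 85.7 and 101 FPKM in FGSC-labelled libraries to 68.0, 67.7 and 69.8 in Dif-FGSC-labelled ones. The FGSC-labelled libraries spread more widely than the others, yet all lay above them, and the ratio was 0.729 (log2 difference -0.45 ± 0.056 SE, limma adjusted p = 0.000286). Tpr overlaps Odr4 and Prg4, both listed at 0, on the opposite strand in the GENCODE annotation. The strand setting of the counting is not given, and any part of these genes in the Tpr value was not tested. Nup153, which binds both the basket and lamins, was listed at 34.6, 34.8 and 35.3 FPKM against 44.9, 42.9 and 44.0. It rose by 1.26 times with no overlap (limma adjusted p = 5.42e-05). Nup50, a mobile cofactor of importin alpha, stood at 39.6, 42.3 and 40.6 FPKM against 46.4, 47.6 and 48.2, a rise of 1.16 times (limma adjusted p = 0.00105). In the central channel, Nup54 fell from 27.5, 26.9 and 25.5 FPKM to 22.7, 22.9 and 23.6, at 0.867 times and without overlap (limma adjusted p = 0.0026). Its partner Nup62, the main FG-repeat protein of the channel, stood at 64.8, 65.5 and 63.8 FPKM against 64.8, 64.1 and 60.5, overlapped and was not called. Nup62 shares annotated exon positions with Il4i1 on the same strand and Atf5 on the opposite strand, both listed at 0. Any part of Il4i1 and Atf5 in the Nup62 value was not tested. Nup62cl, a paralog of Nup62, was listed at 0 in every library.

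All 3 lamin genes were called higher, by small amounts, beside 36.5% of all genes tested. Lmna, which encodes lamins A and C, was listed at 19.2, 20.8 and 20.2 FPKM in FGSC-labelled libraries and at 26.8, 26.8 and 24.9 in Dif-FGSC-labelled ones. The groups were apart at 1.3 times (log2 difference 0.37 ± 0.0441 SE, limma adjusted p = 0.000228). Lmnb2, a B-type lamin, stood at 11.9, 11.2 and 12 FPKM against 13.5, 13.2 and 12.7, at 1.12 times (limma adjusted p = 0.0107), and its call was lost after quantile normalization (0.117). Lmnb1, the other B-type lamin and the highest value as listed, before any allowance for several transcripts, stood at 159, 157 and 144 FPKM against 169, 166 and 162. Its groups did not overlap, but the ratio was 1.08 (limma adjusted p = 0.0419) and FGSC replicate 3 stood below the other replicates of its group. That call was lost under 8 of 14 alternatives, with adjusted p between 0.0515 and 0.17 in those.

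Values of genes with several transcripts are not on the same scale as the others. Cufflinks prints 6 significant digits, and 13 of the 38 members carried more, each of them a gene with several curated RefSeq transcripts. For Lmna, Seh1l, Sun2 and Sun1 the repeating decimals showed a division by 3, 3, 3 and 7, which are also their numbers of RefSeq transcripts. Tmpo showed a division by 3 with 6 RefSeq transcripts. Such a value looks like a mean over transcripts, which lowers the level and leaves the ratio of mean FPKM between groups as it is. Because 1 is added before the log, a lowered level does shrink the log2 difference that was tested. Levels are ranked between genes below only for members with at most 6 digits. Multiplied back, Lmna would stand at 57.6, 62.5 and 60.5 FPKM in FGSC-labelled libraries and 80.5, 80.4 and 74.8 in Dif-FGSC-labelled ones. Of all genes in the table, 78.2% of 6560 expressed genes with several RefSeq transcripts carried more than 6 digits, against 0.513% of 7800 with a single one. Calls were not tested against digits, and over all genes tested 36.5% were higher and 28.6% lower. Among the 23 tested members with at most 6 digits, 11 were higher, 5 lower and 7 not called, and among the other 12 the counts were 3, 5 and 4. On the shared scale of those with at most 6 digits, Lmnb1, at 153 ± 8 FPKM (SD, n = 3) in FGSC-labelled libraries, stood above Nup85 (114 ± 3.11), Sec13 (112 ± 2.28), Lbr (110 ± 6.45), Tpr (94 ± 7.67) and Emd (86.8 ± 0.694), with overlapping values among Nup85, Sec13 and Lbr and between Tpr and Emd. Values of Lbr and Tpr do not overlap.

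Of 4 tested genes of the inner membrane and its chromatin tether, 1 was lower and 3 were not called. Over all genes tested, 28.6% were lower and 36.5% higher. Banf1, the barrier-to-autointegration factor that crosslinks chromatin to LEM proteins, was listed at 72.9, 72.0 and 70.0 FPKM in FGSC-labelled libraries and at 55.1, 53.8 and 53.7 in Dif-FGSC-labelled ones. Every differentiated library was lower, at 0.756 times (log2 difference -0.40 ± 0.0284 SE, limma adjusted p = 1.74e-05). Banf1 overlaps Eif1ad on the opposite strand in the GENCODE annotation, which stood at a mean of 53.5 FPKM, and since the kit keeps strand but the strand setting of the counting is not given, the Banf1 value is uncertain. Lbr, the lamin B receptor, which is also a sterol reductase, stood at 108, 105 and 118 FPKM against 107, 104 and 105. Tmpo, which encodes the LAP2 proteins, stood at 16.1, 16.0 and 15.2 FPKM against 15.4, 14.8 and 14.8. Both overlapped between the groups and were not called, at 0.955 and 0.953 times (limma adjusted p = 0.221 and 0.149). Emd, emerin, stood at 86.8 ± 0.694 and 88.7 ± 0.818 FPKM (SD, n = 3), did not overlap, and was not called (limma adjusted p = 0.297).

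Of 3 tested LINC genes 1 was higher and 2 were not called, beside 36.5% higher and 28.6% lower among all genes tested. Syne2, the giant outer membrane protein nesprin-2, was listed at 4.49, 5.08 and 5.67 FPKM in FGSC-labelled libraries and at 6.26, 6.09 and 6.16 in Dif-FGSC-labelled ones. The groups did not overlap, at 1.21 times (log2 difference 0.24 ± 0.0693 SE, limma adjusted p = 0.0166), and the call was lost without Dif-FGSC replicate 1 (0.0515) and after quantile normalization (0.0705). Sun1, the SUN protein that tethers telomeres to the envelope in meiosis, stood at 3.07, 3.32 and 3.48 FPKM against 3.29, 3.44 and 3.43. Sun2 stood at 3.56, 3.59 and 3.83 FPKM against 4.09, 4.11 and 3.70. Both overlapped and were not called. Syne1, nesprin-1, stayed at 0.119 to 0.181 FPKM in all 6 libraries and was not tested. The envelope genes that work with Sun1 in meiosis were at or near 0. Majin and Terb1 were listed at 0 in every library, Terb2 was listed above 0 only in FGSC replicate 3 (0.0272 FPKM), and Ccdc155, the meiotic KASH protein, did not exceed 0.052 FPKM. Sun3 and Sun5, SUN proteins of sperm, were listed at 0, and Spag4, another SUN protein of sperm, stood at 2.45 ± 0.36 and 2.34 ± 0.403 FPKM (SD, n = 3) and was not called.

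**Figure D3:**
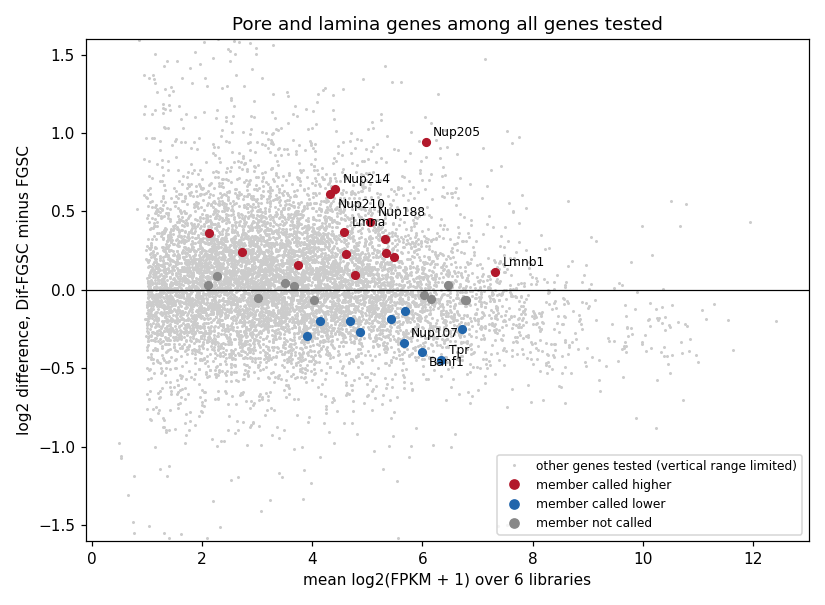
Log2 difference (Dif-FGSC minus FGSC) against mean log2(FPKM + 1) for the members (coloured by call) and all other genes tested (light grey, vertical range limited to 1.6 either way). Nup205, at 0.94, stands near the upper edge of genes of its level, and Tpr, at -0.45, towards the lower edge.

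The balance of rises and falls depended on listed level in the whole table, and the members are set beside it here. Genes were sorted by values as listed, so those with several transcripts may stand in too low a range. Multiplied back, Lmna, Seh1l and Tmpo would move from the range of 8 to 32 FPKM to that of 32 to 128. Sun1 and Sun2 would move from the range of 1 to 8 FPKM to that of 8 to 32. Of 3930 genes with a mean of 1 to 8 FPKM, 36.2% were called higher and 22.7% lower, with a median log2 difference of 0.05. The 5 members of that range had 2 rises and 0 falls. Of 3186 genes with a mean of 8 to 32 FPKM, 41.8% were called higher and 26.6% lower, with a median log2 difference of 0.06. The 13 members of that range had 6 rises and 4 falls. Of 1566 genes at 32 to 128 FPKM, 33.1% were higher and 37.7% lower (median -0.03), and the 16 members there had 5 rises and 6 falls. Above 128 FPKM, 14.6% of 480 genes were higher and 60.4% lower (median -0.17), and Lmnb1 was the member in that range. Nup205, with a mean between 32 and 128 FPKM, had the 211th highest log2 difference of 9162 genes and Tpr the 528th lowest.

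Related genes outside the set also moved in both directions, beside 36.5% higher and 28.6% lower among all genes tested. Of 15 other pore genes tested 7 were higher, 3 lower and 5 not called, with a median log2 difference of 0.00. Pom121, a membrane nucleoporin that starts pore assembly between divisions, was listed at 29.0, 27.8 and 27.6 FPKM in FGSC-labelled libraries and at 58.2, 55.9 and 55.7 in Dif-FGSC-labelled ones. With a ratio of 2.01 it exceeded Nup205 (log2 difference 0.98 ± 0.0333 SE, limma adjusted p = 6.41e-07). Mcm3ap, whose product GANP docks mRNA export complexes at the basket, fell from 39.1 ± 1.47 to 24.1 ± 0.967 FPKM (SD, n = 3; limma adjusted p = 8.49e-06). Senp1, a SUMO protease found at the pore, rose from 9.16 ± 0.458 to 12.2 ± 0.592 FPKM.

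Of 30 tested receptors of nuclear import and export and genes of the Ran cycle, 17 were higher, 7 lower and 6 not called, with a median log2 difference of 0.16 against 0.03 for all genes. Tnpo2, an import receptor for RNA-binding proteins, stood at 5.05, 6.02 and 5.4 FPKM in FGSC-labelled libraries and at 13.3, 13.2 and 13.1 in Dif-FGSC-labelled ones, with no overlap (limma adjusted p = 3.28e-06). Tnpo3, the import receptor of SR splicing factors, rose from 14.6 ± 0.34 to 26.3 ± 0.524 FPKM and Ipo8 from 15.1 ± 0.764 to 22.2 ± 0.144. Of 19 tested genes of the inner membrane and lamin processing, 7 were higher, 3 lower and 9 not called (median 0.03). Syne3, nesprin-3, rose from 8.06 ± 0.104 to 13.7 ± 0.365 FPKM (limma adjusted p = 3.54e-06), Tmem43, an inner membrane protein that binds emerin, from 15.6 ± 0.547 to 21.9 ± 0.251, and Tor1b, an ATPase of the envelope lumen, from 12.9 ± 0.542 to 18 ± 0.518.

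Of 22 genes of proliferation 13 were lower in the same libraries, 4 higher and 5 not called, with a median log2 difference of -0.13. Among all genes tested 28.6% were lower and 36.5% higher. The share lower was 37.7% at 32 to 128 FPKM and 60.4% above 128, levels at which most of this list stood. Mki67, a coat protein of mitotic chromosomes, stood at 54.6, 51.1 and 67.1 FPKM in FGSC-labelled libraries and at 25.5, 25 and 25.6 in Dif-FGSC-labelled ones (limma adjusted p = 2.64e-05). Bub1, a spindle checkpoint kinase, fell from 13.5 ± 0.703 to 8.03 ± 0.065 FPKM and Pcna, the replication clamp, from 315 ± 5.96 to 232 ± 3.91. Pores and lamins are rebuilt at each division, and the part of these levels in the changes of pore genes was not tested.

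**Figure D4:**
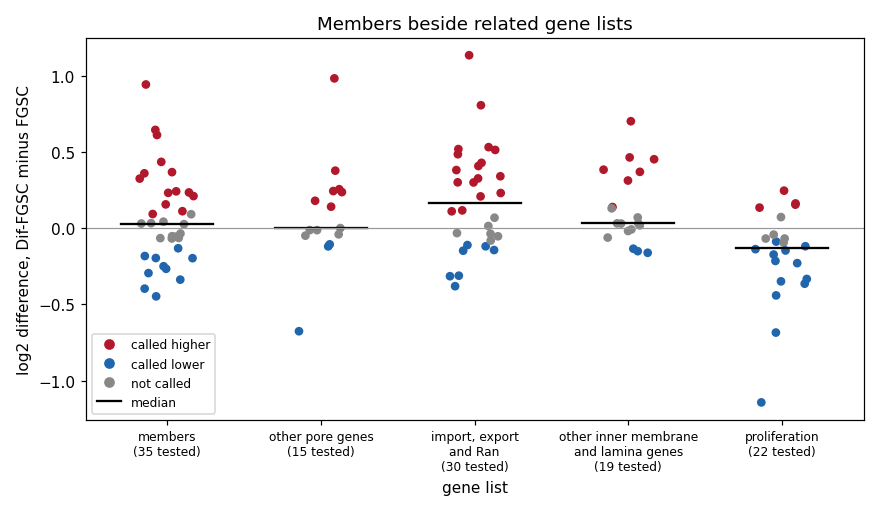
Log2 difference (Dif-FGSC minus FGSC) of each tested gene in the member set and 4 related lists, 1 point per gene coloured by call, with the median of each list as a black bar. Medians are 0.03 for members, 0.00 for other pore genes, 0.16 for import, export and Ran genes, 0.03 for other inner membrane and lamina genes and -0.13 for proliferation genes.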

How the data were processed

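RNA sequencing libraries of 3 FGSC and 3 Dif-FGSC samples were analysed. The libraries are KAPA stranded mRNA libraries of Trizol-extracted RNA, per the labels' protocols. A single table of FPKM values by gene symbol and library was deposited. HISAT2 4.8.2, Cufflinks 2.2.1 and the build mm9 are named in the submitters' processing notes, with no role for each; annotation and strand setting: not given in the sources used here. Columns were matched to samples by prefix and number, and con was read as FGSC.

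The table held 24674 rows; of 2 symbols listed more than once, the row of higher mean stayed. The 9162 genes with a mean of at least 1 FPKM were fitted with limma 3.58.1 in R 4.3.3 (intensity trend) on log2(FPKM + 1), a scale that compresses changes of low genes, with Benjamini-Hochberg adjustment over all of them. Log2 differences and their standard errors are from this fit and ratios are of mean FPKM. The script was tested on simulated data. Alternatives were another pseudocount, other filters, median-ratio scaling, quantile normalization, a replicate block, no trend, no genes listed at 0, and leaving out each library. An exact two-sided permutation test of 3 libraries against 3 cannot give a p below 0.1.

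Steps between low values gave an estimate of depth, over genes with a single reference transcript. With the step chosen, 73.7% to 75.5% of the 342 to 390 values used in each library were whole fragments to within 0.1. A step fixed in advance would give 20% by chance, but this step was picked from many for that same share. Multiples of a step fit as well, and the smallest depth with a share near the best was taken, so the depths are rough. Depth limits the precision of low genes, and single values were not turned into counts.

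Members, role groups and related lists were chosen with earlier results of these data known. Values in every library are given for the 3 members of each role group with the largest log2 difference, the lamins, and, chosen after their values were seen, Nup210l, the members named with ranges and the marker genes; up to 3 called genes are named from each related list.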

Additional observations from a re-analysis of the deposited data

How the results depend on the processing

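Of 487 member results under 14 alternatives, 451 kept their direction and call, and 23 of 35 members did so under every alternative that gave them a value, among them 10 of the 14 called higher and 9 of the 10 called lower. Nup98, Sun1 and Sun2 had no value with a minimum mean of 5 FPKM, which left them out. The exceptions among called members were Lmnb1, Lmnb2, Nup160, Syne2 and Aaas. Members called higher ranged from 11 to 13 and members called lower from 9 to 11 with 1 library left out, where all genes called higher ranged from 2995 to 3390 and all genes called lower from 2300 to 2573. With median-ratio scaling 12 members were higher and 11 lower, and with quantile normalization 11 and 11; the median log2 difference of all genes moved from 0.029 to -0.001 and -0.022. Calls were gained by Sec13 with median-ratio scaling (-0.10) and without Dif-FGSC replicate 3 (-0.10) and by Tmpo with quantile normalization (-0.14).

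Directions turned for members that were not called in either setting. With median-ratio scaling Emd stood at -0.00277 and Nup133 at -0.00465 in log2 difference. With quantile normalization Nup133 stood at -0.0599, Nup93 at -0.0462, Sun1 at -0.0606 and Sun2 at -0.00582. Leaving out FGSC replicate 3 gave -0.00403 for Nup133 and -0.00303 for Nup93, leaving out FGSC replicate 1 gave -0.00476 for Sun1, and leaving out Dif-FGSC replicate 3 gave -0.00485 for Nup133. Without 1 library, the highest value of each of Nup133, Nup93 and Sun1 was 0.07. The cause was not tested.

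Replicate numbers were not taken to pair the samples. Deviations from the group means of same-numbered libraries correlated at 0.131, 0.0123 and 0.173 over genes, and FGSC replicate 2 correlated best with Dif-FGSC replicate 1 (0.106). With a replicate block 13 members were higher and 10 lower, and the call of Nup160 was lost (adjusted p = 0.0752).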

Other observations

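Within the nuclear transport list, importins and Ran cofactors moved in both directions. Kpna2, an importin alpha of dividing cells, stood at 201 ± 5.19 FPKM (SD, n = 3) in FGSC-labelled libraries and 154 ± 0.731 in Dif-FGSC-labelled ones. Ranbp1, a cofactor of RanGAP, stood at 495 ± 11.5 and 397 ± 0.582 FPKM, and Nutf2, the import factor of Ran, at 16.6 ± 0.365 and 13.2 ± 0.775. These 3 genes were called lower. Kpna6 and Kpna1, other importin alphas, were called higher at 1.45 and 1.24 times. Kpnb1, importin beta, was called higher at 1.08 times. These 6 genes were picked after their values were seen.

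The digits of the deposited values bear on any ranking of genes by level in this table. Of 14637 genes above 0 in at least 1 library, 5245 (35.8%) carried more than 6 significant digits. In 1077 of the 1179 genes with 10 digits, 3 times the value fell back on a short decimal in every library, and in 62 genes 7 times the value did.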
